A study of Mus musculus with 8 samples.

Results

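The insulin-like growth factor (IGF) system was followed through 9 genes in paw tissue of mice: the ligands Igf1 and Igf2, the receptor Igf1r and the binding proteins Igfbp2, Igfbp3, Igfbp4, Igfbp5, Igfbp6 and Igfbp7. They were selected by symbol from 22609 genes counted in each of 8 libraries, and all 9 passed the filter on low counts. The libraries came from 4 male and 4 female mice of the inbred strain C57BL/6J. Per the labels, every mouse of both sexes had received prolactin, a pituitary hormone, at 0.1 µg by injection into the sole once a day for 12 days. Age, genotype beyond the strain and the number of animals behind a library are not in the labels, so p-values measure the spread between libraries. Arms given PBS were not analysed here, so no background level without the hormone stands beside the values.

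IGF1 and IGF2 are secreted peptides that signal growth and survival through the tyrosine kinase receptor IGF1R and the insulin receptor substrate and AKT pathway. The binding proteins hold the ligands in tissue fluid and matrix and either block or prolong their action, and proteases release the ligands again. In skin and muscle, fibroblasts and other stromal cells are known local sources of IGF1 and several binding proteins, while IGF2 is an imprinted gene best known for fetal growth.

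The libraries held 16753528 to 24993744 counts in genes. Xist had 26 to 39 counts per male library and 27081 to 42136 per female library, and the 4 Y-linked genes Ddx3y, Eif2s3y, Kdm5d and Uty had 516 to 2882 and 0 to 3, which fits the labels of all 8 libraries. The tissue differed between libraries. The score of 20 fast skeletal muscle genes (mean log2 CPM, where CPM are counts per 1000000 scaled by TMM) ran from 4.86 to 9.92 in males and from 0.53 in female 3 to 9.48 in female 1. The score of 10 fibroblast markers was 8.70 to 9.04 in males, 8.19 in female 3, 8.27 in female 2, 8.89 in female 1 and 9.42 in female 4. The score of 10 keratinocyte markers was 11.29 to 11.67 in males, 11.65 in females 2 and 3, 11.11 in female 1 and 11.07 in female 4. No marker of these 3 lists was called between the sexes, where 0.0947% of all tested genes were. The log2 fold change, female over male, was below 0 for 19 of 20 muscle genes (median -0.45). It was below 0 for 7 of 10 fibroblast markers (median -0.15) and 7 of 10 keratinocyte markers (median -0.1), beside 47.3% of all tested genes. Markers of liver, the main source of circulating IGF1, summed to 0.348 to 1.94 CPM, and Ttr and Serpina1a had 0 counts in every library.

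None of the 9 genes was called between the sexes after adjustment over all genes, though the interval of Igfbp2 lay below 0. By edgeR's quasi-likelihood test with Benjamini-Hochberg adjustment over all 14790 genes tested, 0 of 9 were called at an adjusted p under 0.05, where 0.0947% of all tested genes were (0.0406% higher and 0.0541% lower in females). DESeq2 and limma-voom called 0 of 9 as well. At an unadjusted p under 0.05 stood 1 of 9, Igfbp2, against 6.53% of all genes, and the ranges of the sexes were separate for 0 of 9, against 4.73% (2.93% higher and 1.81% lower in females). The median log2 fold change of the 9, female over male, was 0.04, beside 0.01 over all tested genes, with 5 above 0 and 4 below.

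The ligand Igf1 stood at 102, 119.9, 149 and 97.6 CPM in males 1 to 4 and at 134, 47.9, 58.9 and 164 CPM in females 1 to 4. Females 2 and 3 lay below every male, female 4 lay above every male, and female 1 fell among them. The male mean was 117 ± 23.0 CPM and the female mean 101 ± 56.6 CPM (SD, n = 4 each). The log2 fold change was -0.21 (95% interval -1.12 to 0.70, edgeR adjusted p = 0.999).

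Igf2, the second ligand, stood at 38.1, 48.6, 52.1 and 43.6 CPM in males 1 to 4 and at 79.6, 36.8, 46.8 and 64.4 CPM in females 1 to 4. Females 1 and 4 exceeded all males, and female 2 lay below them all. The log2 fold change was 0.32 (95% interval -0.21 to 0.84, edgeR adjusted p = 0.920). The strand setting of the counting is not given. The antisense gene Igf2as had 1 to 10 counts per library against 766 to 1669 for Igf2. Counts of Igf2as do not show how many antisense reads, if any, were counted to Igf2. The ratio of Igf1 to Igf2 CPM was 2.24 to 2.85 in males, and 1.69, 1.30, 1.26 and 2.54 in females 1 to 4. Thus 3 females had less Igf1 per Igf2 than any male, a difference that was not tested.

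The receptor gene Igf1r was less variable. It stood at 38.0, 38.2, 42.9 and 32.4 CPM in males 1 to 4 and at 50.7, 39.3, 45.5 and 44.8 CPM in females 1 to 4. Females 1, 3 and 4 exceeded every male, while female 2 lay within the male range. The log2 fold change was 0.25 (SE 0.11, unadjusted p = 0.0505, edgeR adjusted p = 0.761), and it lay between 0.18 and 0.32 in the 19 alternative analyses run.

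Igfbp2, a binding protein that can retain ligand at the cell surface, showed the widest gap between the sexes among the 9. It stood at 199, 127, 189.9 and 181 CPM in males 1 to 4 and at 64.9, 151, 97.5 and 82.9 CPM in females 1 to 4. Females 1, 3 and 4 lay below every male, but female 2 exceeded male 2. The male mean was 174 ± 32.4 CPM and the female mean 98.9 ± 36.9 CPM (SD, n = 4 each). The log2 fold change was -0.82 (95% interval -1.41 to -0.22, unadjusted p = 0.0129), and it did not pass the adjustment over all genes (edgeR adjusted p = 0.640). It lay below 0 in all 19 alternatives run, from -1.09 without female 2 to -0.63 with the keratinocyte score as a covariate, with adjusted p from 0.119 to 1.0. The keratinocyte score was lowest in females 1 and 4, where Igfbp2 was lowest. In female 3 the score was 11.65 and Igfbp2 stood at 97.5 CPM. Over the 8 libraries Igfbp2 and the keratinocyte score, a relation examined after seeing the data, had r = 0.75 and rho = 0.67, which did not pass (exact permutation p adjusted over the 9 genes 0.0555 and 0.0935), and r was 0.19 without females 1 and 4. With 1 library left out r ran from 0.63 to 0.91, the highest being without female 3.

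**Figure D1:**
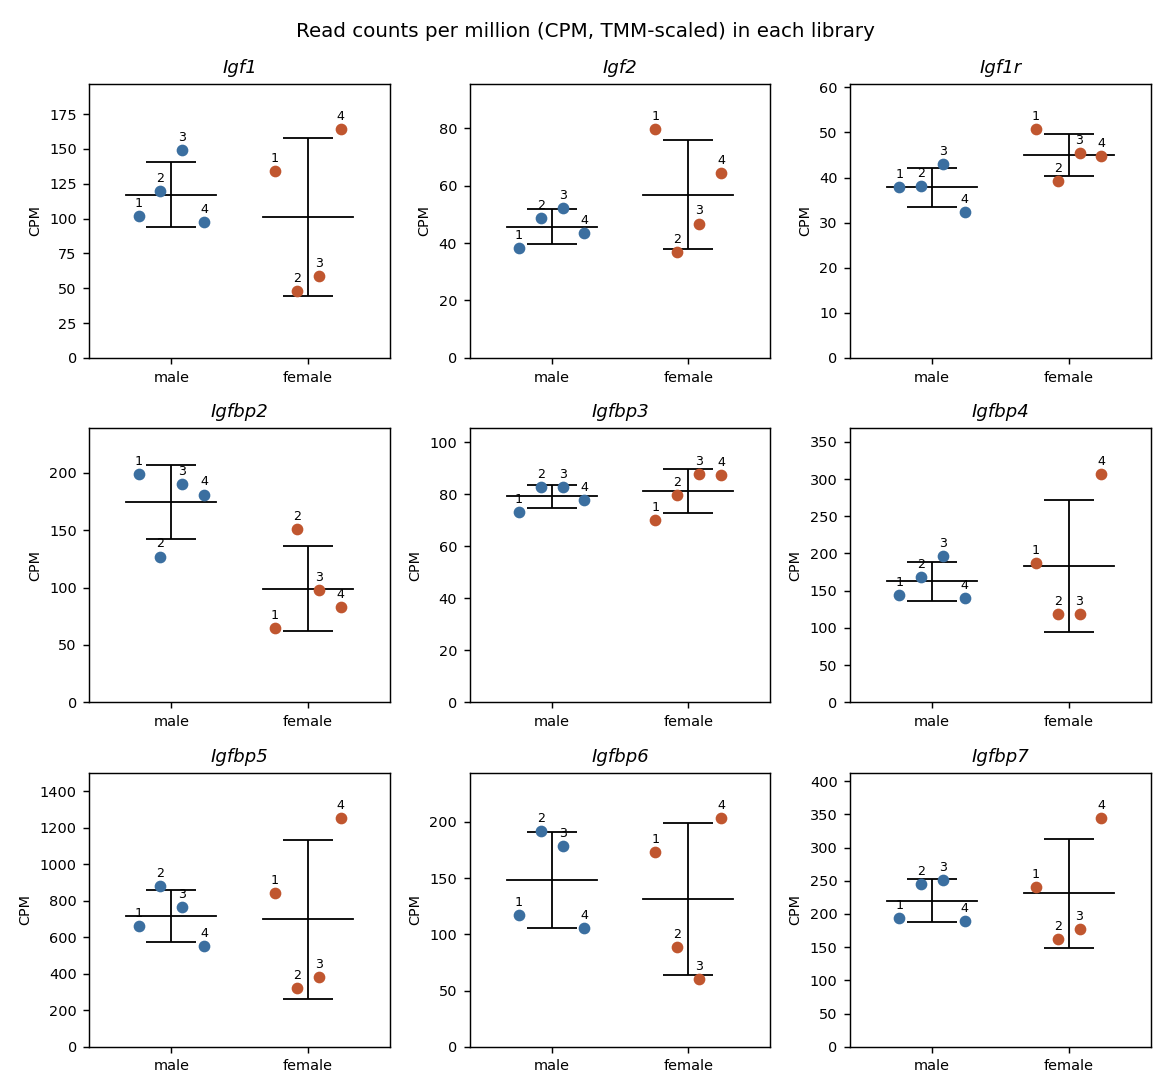
CPM of each of the 9 genes in every library, with males in blue and females in orange, the replicate number above each point, and the mean and SD of each sex as black lines. For Igf1, Igf2 and Igfbp3 to Igfbp7 the females spread beyond the males on both sides (Igfbp5 from 324 to 1251 CPM, Igfbp3 only from 70.0 to 87.8 CPM). For Igfbp2, 3 of 4 females lie below the males.

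Igfbp3, whose protein carries most IGF in the circulation, was the steadiest of the 9. It stood at 73.3, 82.8, 82.6 and 77.7 CPM in males 1 to 4 and at 70.0, 79.6, 87.8 and 87.5 CPM in females 1 to 4. Its highest library exceeded its lowest by 1.25 times, and its coefficient of variation over the 8 libraries was 7.91%, below the median of 10.5% for the 4375 tested genes within 2-fold of its level. The log2 fold change was 0.04 with a 95% interval of -0.16 to 0.24 (edgeR adjusted p = 0.999).

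Igfbp5, which binds matrix and is known from fibroblasts and muscle, had the most counts of the 9, with 7016 to 32430 per library. It stood at 664, 881, 767 and 552 CPM in males 1 to 4 and at 844, 324, 379.8 and 1251 CPM in females 1 to 4. Females 2 and 3 lay below all males and female 4 above them, a 3.86-fold range. The log2 fold change was -0.03 (95% interval -1.0 to 0.93, edgeR adjusted p = 0.999).

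Igfbp4, a soluble binding protein cleaved by the protease PAPP-A, stood at 144, 169, 197 and 139.8 CPM in males 1 to 4 and at 187, 119, 119 and 307 CPM in females 1 to 4. Igfbp6, which prefers IGF2, stood at 117, 192, 178 and 106 CPM in males and at 173, 88.9, 59.9 and 203 CPM in females. Igfbp7, a relative with low affinity for IGFs that is abundant in vessel walls, stood at 194, 245, 251 and 190.1 CPM in males and at 240.1, 163, 177 and 344 CPM in females. In each of these genes females 2 and 3 were below every male and female 4 was above every male, as for Igf1 and Igfbp5. The log2 fold changes were 0.17, -0.18 and 0.07, with 95% intervals of -0.53 to 0.88, -1.10 to 0.74 and -0.47 to 0.61 (edgeR adjusted p = 0.999 for each).

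**Figure D2:**
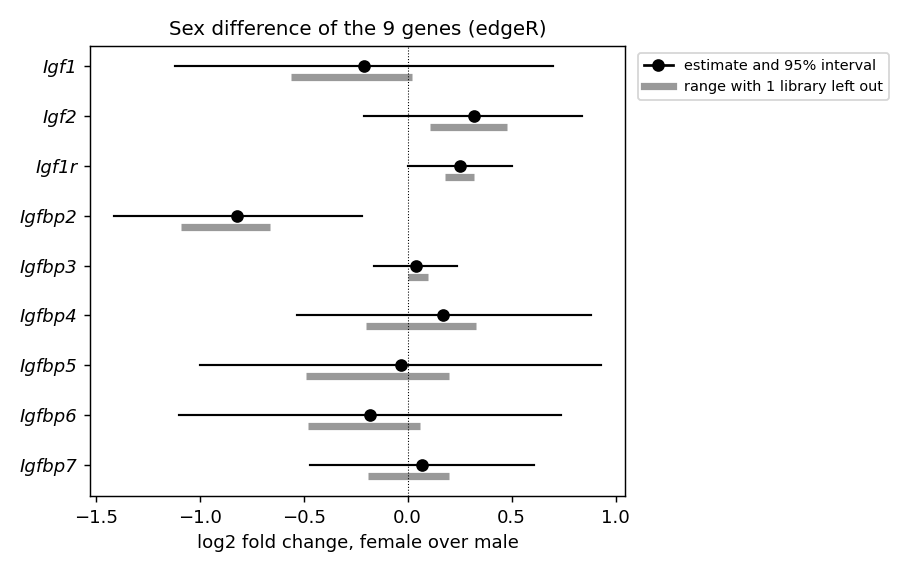
Log2 fold change of each gene, female over male, with its 95% interval (black) and the range of estimates when 1 library at a time is left out (grey). The interval reaches from -1.41 to -0.22 for Igfbp2, spans -1.0 to 0.93 for Igfbp5 and is narrowest for Igfbp3, at -0.16 to 0.24.

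The direction of these small differences depended on single libraries. It turned for Igfbp3, Igfbp4 and Igfbp7 without female 4 (to -0.0029, -0.20 and -0.19) and for Igf1 without female 2 (to 0.02). It turned for Igfbp6 without female 3 (to 0.06), and for Igfbp5 without male 2, male 3, female 2 or female 3 (to 0.06, 0.00032, 0.20 and 0.17). Igf2, Igf1r and Igfbp2 kept their direction whichever library was left out, but the size of the Igf2 difference did not hold: its log2 fold change was 0.11 without female 1 and 0.48 without female 2. With the keratinocyte score as a covariate, a fit added after seeing the data, the log2 fold changes moved to 0.07 for Igf2, -0.76 for Igf1, -0.64 for Igfbp5 and -0.67 for Igfbp6, still without passing (edgeR adjusted p = 0.116, 0.0911 and 0.0781 for the last 3). With the fibroblast score instead, also added after seeing the data, they were 0.42 for Igf2, -0.07 for Igf1, 0.10 for Igfbp5 and -0.01 for Igfbp6. That of Igfbp4 was then 0.31 (edgeR adjusted p = 0.24). The direction and size thus depended on which score was in the fit.

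Igf1, Igfbp4, Igfbp5, Igfbp6 and Igfbp7 varied together across the 8 libraries. Of the 36 pairs among the 9 genes, 10 passed an exact two-sided permutation test of Pearson's r after adjustment over the 36, all positive, and these were the 10 pairs among those 5 genes. Among all pairs of the 14790 tested genes, 2.56% had an r as high as the loosest of the 10, and the 5 were singled out after their values were seen. The closest pair was Igfbp4 and Igfbp7 (r = 0.98, rho = 0.98, adjusted p = 0.00358 and 0.00476), with r = 0.96 without females 2 and 4. Igf1 and Igfbp5 had r = 0.96 and rho = 0.90 (adjusted p = 0.00358 and 0.0164), and r = 0.85 without females 2 and 3. Igf1 and Igfbp4 put the 8 libraries in the same order (rho = 1.0, p = 4.96e-05, the smallest that 8 libraries can give; adjusted p = 0.00179; r = 0.86, adjusted p = 0.0194). The loosest of the 10 was Igfbp4 with Igfbp6, at r = 0.83 and rho = 0.90 (adjusted p = 0.0292 and 0.0164).

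Igf2 followed this set in part. With Igf1 and with Igfbp4 it had rho = 0.83 (exact permutation, adjusted p = 0.0462 for both), while r was 0.67 and 0.70 (adjusted p = 0.145 and 0.122). Igf2 and Igfbp2 ran in opposite directions (r = -0.80, rho = -0.64) without passing (exact permutation, adjusted p = 0.0511 and 0.192), and r was -0.24 without females 1 and 4. Igfbp3 passed with none of the other 8 genes, its r lying between -0.12 and 0.24 over all libraries. Without male 4 and female 1 its r with Igf1r was 0.82. Without females 1 and 4 its r was -0.81 with Igfbp2 and 0.66 with Igf2. With the remaining genes r without 2 libraries was 0.05 to 0.51. These r over fewer libraries were not tested.

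The 5 genes that varied together also followed the fibroblast markers. With the fibroblast score Igfbp5 had r = 0.96, Igf1 0.94, Igfbp4 0.91, Igfbp6 0.90 and Igfbp7 0.90 over 8 libraries (exact permutation, adjusted p = 0.00201 for each over the 9 genes). Spearman's rho was 0.79 for Igfbp5 (adjusted p = 0.0503), 0.90 for Igfbp7 and 0.88 for the other 3 (adjusted p = 0.0163 for these 4). Females 2 and 3 stood apart at the low end of the score. Over the other 6 libraries r was 0.93 for Igfbp4, 0.91 for Igfbp7, 0.89 for Igfbp5, 0.82 for Igf1 and 0.69 for Igfbp6, in the same direction as over all 8. An r with this score as high as the weakest of the 5 was held by 3.02% of all tested genes. Igf2 (r = 0.52, rho = 0.48), Igf1r (0.12, -0.05), Igfbp2 (-0.11, 0.14) and Igfbp3 (-0.03, 0.00) did not pass (adjusted p of 0.278 or more). In bulk tissue, a change in the number of cells of a type and a change in RNA per cell cannot be told apart.

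**Figure D3:**
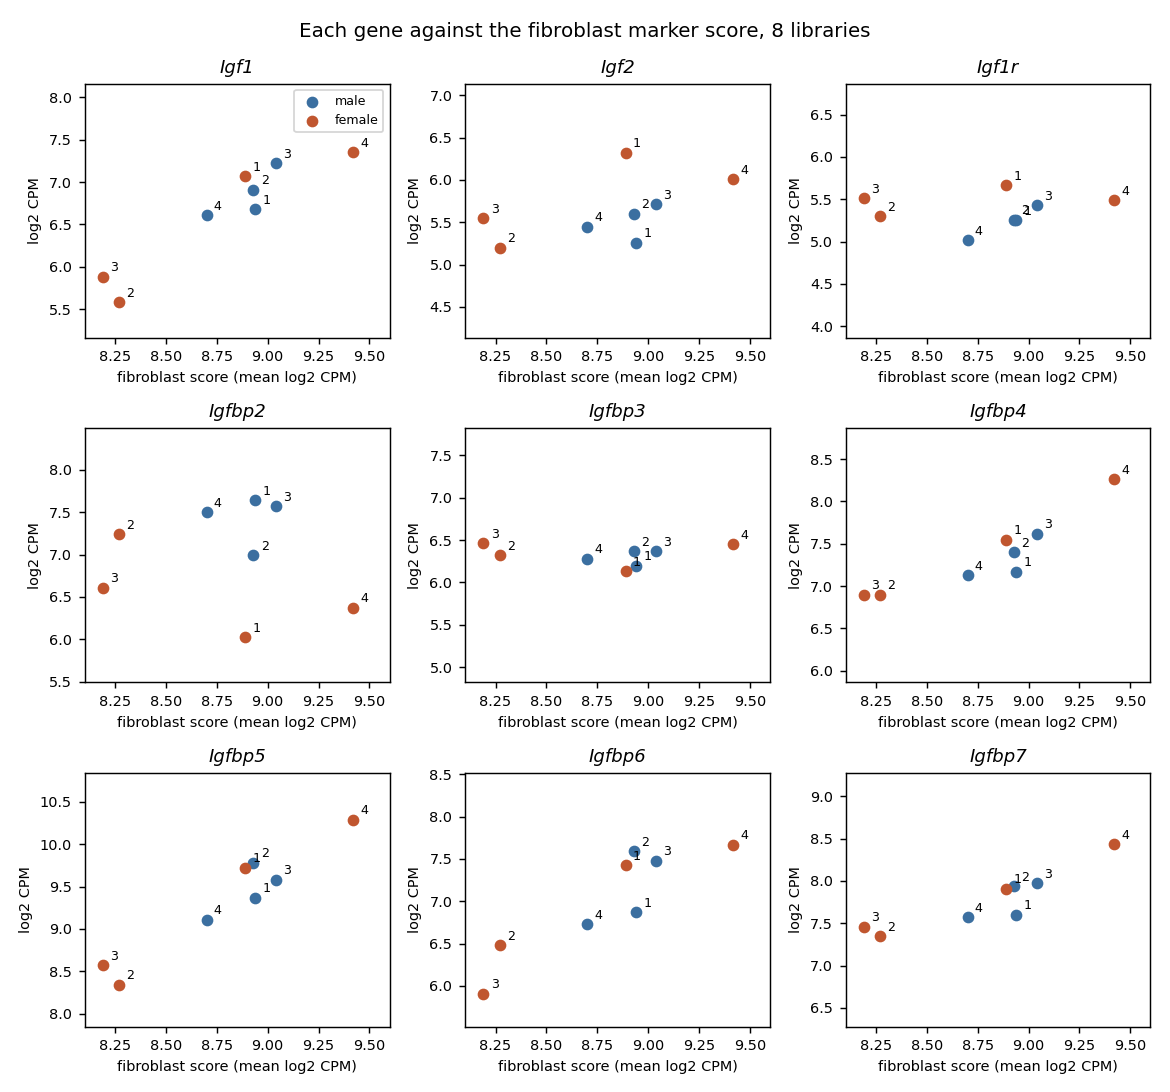
Log2 CPM of each gene (vertical axis, 3 log2 units in every panel) against the fibroblast marker score of the library (mean log2 CPM of 10 markers, horizontal axis), with males in blue, females in orange and replicate numbers beside the points. Igf1 and Igfbp4 to Igfbp7 rise with the score from females 3 and 2 to female 4 (r of 0.90 to 0.96), while Igfbp2 and Igfbp3 show no such order.

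Markers of other cell types also differed between libraries, and the macrophage and endothelial scores moved with the same 5 genes. The macrophage score, over 6 markers, was 5.87 in female 2, 5.93 in female 3, 7.03 in female 1 and 7.59 in female 4, and 6.73 to 6.97 in males. With it, in a comparison added after seeing the data, Igfbp5 had r = 0.96, Igf1 0.95, Igfbp4 0.90, Igfbp7 0.88 and Igfbp6 0.85 (exact permutation, p adjusted over 36 relations of 4 further scores, 0.0125 or less), with rho of 0.81 to 0.95 (adjusted p = 0.0356 or less). Without females 2 and 3 these r were 0.84, 0.79, 0.94, 0.87 and 0.57. Over all libraries, 5.66% of all tested genes had an r with the macrophage score as high as the weakest of the 5, 0.85. The score of 8 endothelial markers was 4.96 in female 2, 5.09 in female 3, 5.54 in female 1 and 5.81 in female 4, and 5.09 to 5.77 in males. With it Igfbp7, whose protein is found in vessel walls, had r = 0.92 and rho = 0.90 (exact permutation, adjusted p = 0.0075 and 0.0235), and r = 0.95 without male 2 and female 4. The other 4 of the 5 genes had r of 0.81 to 0.90 with the endothelial score (adjusted p = 0.0304 or less, exact permutation) and rho of 0.88 to 0.98. Of all tested genes, 7.65% had an r with that score as high as 0.81.

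The score of 7 pericyte and smooth muscle markers was 5.53 in female 2, 6.34 in female 3, 6.51 in female 1 and 6.85 in female 4. In males it was 6.0 to 6.63. That of 6 Schwann cell markers was 5.44, 5.62, 6.16 and 6.36 in females 2, 3, 1 and 4, and 5.38 to 6.2 in males. Female 3 thus lay within the male range of both scores. With the Schwann score Igfbp7 had r = 0.91 and rho = 0.81 (exact permutation, adjusted p = 0.0125 and 0.0356), and r = 0.98 without male 1 and female 4. Igf1, Igfbp4, Igfbp5 and Igfbp6 had r of 0.79 to 0.87 with it (exact permutation, adjusted p = 0.043 or less). For Igfbp5 and Igfbp6 rho did not pass (adjusted p = 0.0717 and 0.0864). Igf2, outside the 5, passed as well (r = 0.83, rho = 0.9, adjusted p = 0.0183 and 0.0235). With the pericyte score Igfbp7 had r = 0.85 and rho = 0.83 (exact permutation, adjusted p = 0.0234 and 0.0356), and r = 0.71 without females 2 and 4. Igfbp5 (r = 0.83) and Igf1 (0.78) passed by r (exact permutation, adjusted p = 0.0286 and 0.0406). Igfbp4 (0.77) and Igfbp6 (0.63) did not (adjusted p = 0.0501 and 0.141). Without females 2 and 4 these r were 0.45, 0.34, 0.53 and 0.51, in that order. For the Schwann and pericyte scores the share of all tested genes with an r as high was not worked out. The passes with them are therefore not shown to be particular to these genes. Which of these cell types the 5 genes belong to cannot be told apart in these libraries. Scores of adipocyte, tendon, bone and cartilage, and muscle stem cell markers also differed between libraries. They were not compared with the genes, and the adjustment does not cover them.

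The keratinocyte score ran the other way. Its r, examined after seeing the data, was -0.86 with Igfbp7, -0.83 with Igfbp4, -0.81 with Igfbp5, -0.78 with Igfbp6 and -0.70 with Igf1. The exact permutation p adjusted over the 9 genes was 0.0203, 0.0203, 0.0292, 0.0484 and 0.0765, in that order. Spearman's rho for these 5 was -0.79, -0.81, -0.86, -0.76 and -0.81 (adjusted p = 0.0503, 0.0490, 0.0482, 0.0551 and 0.0490). Without females 1 and 4 r was -0.81, -0.66, -0.71, -0.77 and -0.56. Over all libraries, 16.4% of all tested genes had an r with this score as low as the weakest of the 5, -0.70. Igf2 had the strongest relation to this score, with r = -0.87 and rho = -0.88 (exact permutation, adjusted p = 0.0203 and 0.0482), and r = -0.59 without females 1 and 4. Shares of one total fall when others rise, so the scores are not independent of each other.

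With the fast muscle score, 1 of the 9 genes passed. Igfbp6 had r = 0.87 (exact permutation, adjusted p = 0.0382), and rho = 0.81 did not pass (adjusted p = 0.125). With CPM scaled to total counts its r was 0.86 and no longer passed (exact permutation, adjusted p = 0.0522), and without male 2 and female 3, the ends of the score, r was 0.67. Igfbp5 (r = 0.66, rho = 0.79), Igf1 (0.62, 0.69), Igfbp7 (0.54, 0.71), Igfbp4 (0.52, 0.69) and Igf2 (0.37, 0.62) did not pass (adjusted p of 0.125 or more). An r with the muscle score as high as that of Igfbp4, 0.52, was held by 25.3% of all tested genes. The share with an r as high as that of Igfbp6, 0.87, was not worked out. For Igfbp3 (-0.43, -0.19), Igf1r (0.08, 0.17) and Igfbp2 (-0.07, -0.21) the adjusted p was 0.446 or more. Without male 2 and female 3 r was 0.96 for Igf1r and 0.72 for Igf2, and r of Igf1r was 0.65 without female 3 alone. In female 3, with 47.3 CPM over all 20 muscle genes, Igfbp6 was at its lowest, 59.9 CPM, while the other 8 genes were within the range of the other libraries or, for Igfbp3, above it.

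The promoters of Igfbp4 and Igfbp7, the closest pair, and of Igfbp2, which did not vary with them, are shown because their letters differ. All 9 genes matched RefSeq start sites of build GRCm38.p6, with 13 windows of 250 bases before a start. Capitals mark the TATA box letters TATAAA and the GC box letters GGGCGG, each searched on both strands.
Igfbp4 (chr11:99040994-99041243, plus strand): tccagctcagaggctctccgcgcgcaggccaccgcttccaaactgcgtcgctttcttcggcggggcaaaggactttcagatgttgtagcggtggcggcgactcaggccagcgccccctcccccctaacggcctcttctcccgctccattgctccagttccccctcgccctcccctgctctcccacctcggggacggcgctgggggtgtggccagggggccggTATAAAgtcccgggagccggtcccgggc
Igfbp7 (chr5:77408046-77408295, minus strand): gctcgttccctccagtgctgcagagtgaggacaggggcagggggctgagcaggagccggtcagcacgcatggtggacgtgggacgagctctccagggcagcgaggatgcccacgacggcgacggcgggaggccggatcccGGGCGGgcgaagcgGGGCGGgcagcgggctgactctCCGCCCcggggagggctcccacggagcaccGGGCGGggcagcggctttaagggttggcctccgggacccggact
Igfbp2 (chr1:72824230-72824479, plus strand): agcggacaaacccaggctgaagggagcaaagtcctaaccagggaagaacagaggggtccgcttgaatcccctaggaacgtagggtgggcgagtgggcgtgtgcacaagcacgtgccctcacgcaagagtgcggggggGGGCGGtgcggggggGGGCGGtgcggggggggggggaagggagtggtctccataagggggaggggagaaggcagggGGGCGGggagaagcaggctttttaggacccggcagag

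Igfbp4 held 1 TATA box match, 28 bases before the start, and 0 GC box matches. Igfbp7 held 4 GC box matches and no TATAAA, and this Igfbp2 window held 3 GC box matches and no TATAAA. The other Igfbp2 window, not shown, held 0 GC box matches and 0 TATA box matches. Of the 13 windows 2 held TATAAA and 5 held GGGCGG, beside 12.4% and 32.7% of all 32851 RefSeq windows of this length. The letters TTCNNNGAA, bound by STAT5, the factor that the prolactin receptor activates, were in 0 of the 13 windows and in 7.02% of all. CANNTG, the E-box, was in 8 of 13 and in 66.2% of all. A match in letters is a description of these windows only.

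Levels of different genes were compared as CPM per kilobase of transcript, with the mean length of the protein-coding GENCODE M21 models of each gene. Igfbp7 was highest at 195 ± 50.3 (SD, n = 8 libraries), then came Igfbp6 at 126 ± 48.1, Igfbp2 at 119 ± 44.9, Igfbp5 at 118 ± 49.9 and Igfbp4 at 75.6 ± 26.9. Igf1 stood at 50.3 ± 18.8, Igfbp3 at 38.8 ± 3.07, Igf2 at 16.5 ± 4.62 and Igf1r at 3.64 ± 0.496. Igfbp7 exceeded Igfbp6, Igfbp5 exceeded Igfbp4, Igfbp4 exceeded Igf1, Igfbp3 exceeded Igf2 and Igf2 exceeded Igf1r in 8 of 8 libraries (exact sign-flip permutation within libraries, p = 0.00781, the smallest possible, adjusted p = 0.0125 over 8 neighbours). Igfbp6, Igfbp2 and Igfbp5 could not be ordered (adjusted p = 0.945 for both steps), nor Igf1 and Igfbp3 (adjusted p = 0.344). With the longest model of each gene, Igf1 fell from 50.3 to 15.5 and lay below Igfbp3 in 8 of 8 libraries, its longest model being 7052 bases and its mean 2172 bases. With the longest models Igfbp4 exceeded Igfbp3, and Igf1 exceeded Igf2, in 6 of 8 libraries each. Neither step passed (exact sign-flip permutation, adjusted p = 0.0729 for both). The means of Igfbp2 and Igfbp5 changed places. The order therefore depends on the length used for Igf1 and for some other genes, while Igfbp7 stayed first and Igf1r last.

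**Figure D4:**
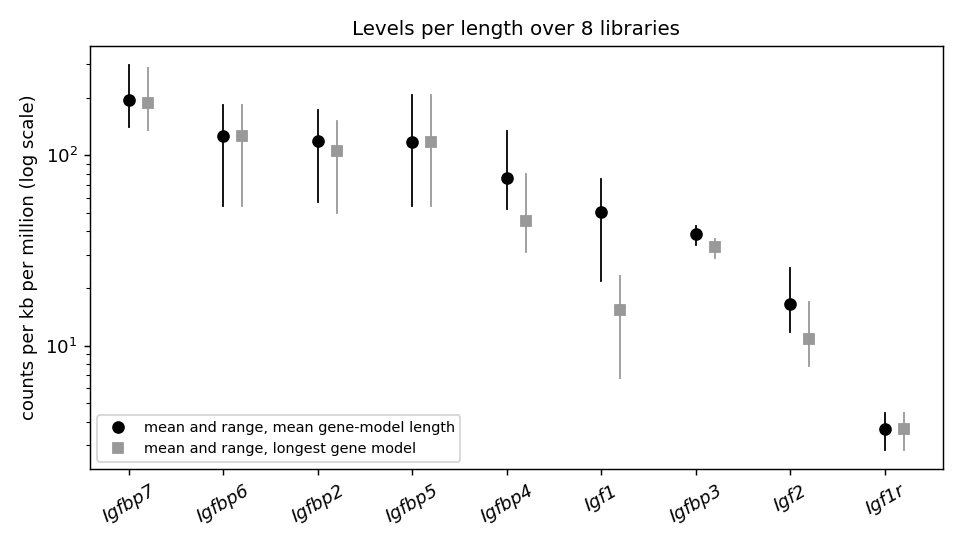
CPM per kilobase (log scale) of the 9 genes, as the mean and range over 8 libraries, with the mean length of each gene's models (black) and the length of the longest model (grey). Igfbp7 is highest and Igf1r lowest with either length, and Igf1 moves most, from a mean of 50.3 to 15.5.

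The mix of binding protein transcripts changed between libraries. Per length, Igfbp2 made up 26.5, 14.6, 20.8 and 26.0% of the transcripts of Igfbp2 to Igfbp7 in males 1 to 4, and 8.36, 26.4, 18.9 and 7.70% in females 1 to 4. Igfbp5 made up 15.1 to 19.4% in males and 20.8, 10.9, 14.1 and 22.2% in females 1 to 4. The sum of the 6 ran from 449 in female 3 to 936 in female 4. The ratio of Igfbp5 to Igfbp2 CPM was 13.0 and 15.1 in females 1 and 4, 2.15 and 3.90 in females 2 and 3, and 3.05 to 6.93 in males.

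Beside genes of like level, most members varied widely. The coefficient of variation over 8 libraries was 42.3% for Igfbp5, 38.3% for Igfbp6, 37.7% for Igfbp2, 37.5% for Igf1, 35.6% for Igfbp4, 28.0% for Igf2 and 25.8% for Igfbp7. The tested genes within 2-fold of each of these had medians of 10.3 to 15.0%. For Igf1 and Igfbp5 it was 19.7% among males in both cases, and 56.0 and 62.2% among females. For Igfbp2 it was 18.6% among males and 37.3% among females. Igf1r went the other way, with 11.4% among males and 10.3% among females. Over all 8 libraries Igf1r had 13.6%, beside a median of 11.3% for genes of its level. The spread of the sexes was not compared by a test.

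The genes most like each member over the 8 libraries were ranked by Pearson's r of log2 CPM among 10430 genes with a mean of at least 10 CPM. For Igfbp5 they were Ntn1 (netrin-1, r = 0.996), Man1a (a Golgi mannosidase, 0.993) and Csf1 (the macrophage growth factor, 0.993). For Igfbp7 they were Cav1 (caveolin-1, 0.995), Ndn (necdin, 0.986) and Col4a2 (a basement membrane collagen, 0.984). Igfbp6 was closest to Nenf (0.994), Arfgap3 (0.990) and Orai3 (a calcium channel subunit, 0.988), and Igfbp4 to Cep170 (0.989), Cyb5r3 (0.988) and Scamp5 (0.983). Igf1 was closest to Fam115a (0.987), Sepp1 (selenoprotein P, 0.983) and Fcgrt (the neonatal Fc receptor, 0.983). For Igfbp2 they were Fam158a (0.979), Nkpd1 (0.976) and Mfhas1 (0.974), and for Igf2 Ipo9 (an importin, 0.960), Aifm2 (0.954) and Plekhh2 (0.939). Igfbp3 had the loosest matches, with Rnf13 (0.952), Trmt5 (0.886) and Papd4 (0.854). The points share library, depth and tissue mix, and the values are the extremes of many.

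Of the further IGF axis list, 57 of 62 genes were tested. By edgeR 0 were called, against 0.0947% of all tested genes, and 6 had an unadjusted p under 0.05, against 6.53%. Of the 57, 33 had a log2 fold change above 0 and 24 below (median 0.05), where 47.3% of all tested genes lay below 0 (median 0.01). The ranges of the sexes were separate for 1 of 57, against 4.73% of all genes: Foxo3, a transcription factor that AKT keeps out of the nucleus. It stood at 37.6, 43.0, 38.1 and 40.8 CPM in males 1 to 4 and at 33.6, 34.2, 34.3 and 28.0 CPM in females 1 to 4, each below the lowest male (log2 fold change -0.30, SE 0.09, edgeR adjusted p = 0.616).

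Among receptors, 0 of 3 were called. Igf2r, which clears IGF2, averaged 106 ± 9.04 CPM in the males and 109.8 ± 17.9 CPM in the females, and Insr, the insulin receptor, at 68.0 ± 13.8 and 67.3 ± 8.28 CPM (SD, n = 4 each). Of the 9 tested binding-protein partners and proteases 0 were called. Stc1, stanniocalcin-1, which inhibits PAPP-A, averaged 4.28 ± 0.923 CPM in the male libraries and 6.52 ± 1.03 CPM in the female ones, overlapping ranges (log2 fold change 0.61, edgeR adjusted p = 0.657). The endocytic receptor Lrp1 (log2 fold change 0.08) and the protease Htra3 (0.00) were the most abundant of that list. Igfbp1, singled out after its values were seen, had 0 counts in all libraries, which allows up to 0.120 to 0.179 CPM (3 counts per library, counting error only).

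Of 9 tested genes with an IGFBP-type domain 0 were called. Htra4 had 14 to 176 counts per library and averaged 1.06 ± 0.617 CPM in the male and 3.93 ± 2.45 CPM in the female libraries, again with overlap (log2 fold change 1.89, SE 0.57, edgeR adjusted p = 0.594). The matricellular genes Ctgf and Nov had log2 fold changes of 0.75 (adjusted p = 0.750) and 0.07 (adjusted p = 0.999) by edgeR. Of 8 tested adaptors 0 were called, with Grb10, an inhibitor of the receptor, at 0.22 and Shc1 at 0.13. Of 17 genes of the AKT branch 0 were called, with Akt1 at 0.09. Of 5 growth hormone input genes 0 were called, with the receptor gene Ghr at 0.13 and Stat5b at -0.24.

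Of 5 imprinted genes tested with Igf2 0 were called. H19, the noncoding RNA transcribed beside Igf2 from the other parental allele, stood at 91.7, 94.4, 91.3 and 45.7 CPM in males 1 to 4 and at 231, 83.7, 22.6 and 127 CPM in females 1 to 4. Females 1 and 4 were highest, as for Igf2, and female 3 was lowest, where Igf2 was not (log2 fold change 0.52, SE 0.62, edgeR adjusted p = 0.999). Plagl1, a zinc finger gene of the same network, differed by 0.67 on the log2 scale (SE 0.23, edgeR adjusted p = 0.667). The mRNA-binding protein gene Igf2bp2, the only 1 of 3 tested, differed by 0.56 on that scale (SE 0.35, edgeR adjusted p = 0.877).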

How the data were processed

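The authors deposited whole-number read counts per gene symbol, 1 file per library, not normalized. The tools named, per the submitters' processing notes, are HTSeq, TopHat2 and bcl2fastq, and the build is mm9. For their versions, the annotation and the strand setting: not given in the sources used here. Per the labels' protocols about 500 ng of total RNA entered a stranded poly(A) kit and reads were single-end, 50 bp. The counter's summary lines name no gene and entered no fit (18 to 21.1% of uniquely placed reads lay in no feature). Same-sex libraries differed far beyond sampling noise (chi-square per degree of freedom of 13.2 or more in 12 pairs), so none was treated as a repeat.

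Counts were filtered by filterByExpr, scaled by TMM and fitted with sex as the sole term in edgeR 4.0.16 (R 4.3.3), with limma 3.58.1 and DESeq2 1.42.0 as alternatives. SEs were derived from the F statistic, and intervals are 95%. Log2 CPM carry a prior count of 2. Correlations used exact permutations (scipy 1.17.1), adjusted over 9 genes per score or 36 pairs. Lengths are from GENCODE M21, another build than mm9, used for lengths only. The fit was tested on simulated data. Members and lists were chosen with earlier results of these data known. Named were the members, each called gene of the IGF axis list, the 3 of smallest p, up to 2 most abundant per sub-list, and 3 genes most like each member except Igf1r.
Relations to the keratinocyte and the 4 further marker scores and the fits with fibroblast or keratinocyte score were added after seeing the data. A gene that the rule names is not reported here.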

Additional observations from a re-analysis of the deposited data

How the results depend on the processing

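No member was called in any of the 19 alternatives, and Igf2, Igf1r and Igfbp2 kept their direction in all. Over all genes edgeR called 14, DESeq2 112, and 8 to 16 were called with 1 library left out. Added after seeing the data, fits with the keratinocyte score called 204, with the fibroblast score 24, and without male 2 and female 3 9. No number pairs the libraries: same-numbered libraries had correlations of -0.31 to -0.09, and 0 of 8 matched best with its own number. With the replicate number as a block 7 genes were called, none a member.

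Log2 fold changes that turned were Igfbp5 (0.12 with the muscle score, 0.10 with the fibroblast score, 0.27 without male 2 and female 3), Igfbp6 (0.01 with the muscle score, 0.20 without those libraries), and Igfbp4 and Igfbp7 (both -0.19 with the keratinocyte score). With 1 library left out they ran from -0.56 to 0.02 for Igf1, 0.11 to 0.48 for Igf2, -0.0029 to 0.10 for Igfbp3, -0.20 to 0.33 for Igfbp4, -0.49 to 0.20 for Igfbp5, -0.48 to 0.06 for Igfbp6 and -0.19 to 0.20 for Igfbp7. The cause was not tested.

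Correlations with the muscle score moved without male 2 and female 3 for Igf2 (0.72), Igf1r (0.96) and Igfbp2 (-0.65). With 1 library left out they ran from -0.20 to 0.65 for Igf1r, -0.55 to 0.25 for Igfbp2 and -0.57 to -0.07 for Igfbp3. That of Igfbp6 lost its pass when scaled to total counts (0.86). With the fibroblast score, r without females 2 and 3 was 0.51 for Igf1r and 0.64 for Igfbp3. With 1 library left out it ran from -0.35 to 0.21 for Igfbp2 and -0.45 to 0.36 for Igfbp3, and Igfbp3 turned to 0.07 with total counts. With the keratinocyte score, r without females 1 and 4 was -0.10 for Igf1r, 0.19 for Igfbp2 and -0.31 for Igfbp3. Igfbp3 ran from -0.56 to 0.39 with 1 library left out and turned to -0.02 with total counts. With the longest gene model the mean log2 level per length was 5.43 for Igfbp4, 3.84 for Igf1, 5.05 for Igfbp3 and 3.39 for Igf2. The members had at least 661 counts in every library.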
